A study of Caenorhabditis elegans with 9 samples.

Results

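The splicing genes described here are *sfa-1*, *uaf-1* and *rsp-1* to *rsp-8* of *Caenorhabditis elegans*, chosen by these symbols from a table of counts per gene. Each symbol matched 1 of 46926 gene identifiers, and all 10 genes were among the 14332 genes with enough counts to be tested. The worms were wild-type N2 animals raised on HT115 bacteria to adult day 1 and then kept for 24 h on plates with 10 μg per ml kanamycin, which stops bacterial growth. They received undiluted bacteria (ad libitum, AL), diluted bacteria (DR1, a solid dietary restriction) or no bacteria (DR0), with 3 libraries per condition. RNA came from whole worms and was enriched for polyA tails, so a lower value cannot separate fewer cells of a type from less RNA per cell. Whether the libraries of a condition stem from separate cultures is not stated, and p values therefore measure the spread among these libraries.

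Before an intron is removed, its branch point and its 3′ splice site have to be recognized. SFA-1, the worm form of splicing factor 1 (also called branch-point binding protein), binds the branch point, and UAF-1, the large subunit of U2AF, binds the pyrimidine-rich stretch beside the 3′ splice site and cooperates with it. SR proteins carry RNA-recognition motifs and a region rich in arginine and serine. They bind exons and help to recruit U2AF and the U1 particle, and their levels influence which alternative exons are used. In *C. elegans*, *sfa-1* is known for its requirement in the long life of worms under dietary restriction, and *rsp-3* for its essential role in the embryo. Counts per gene measure the transcripts of these factors and not the splicing that they carry out.

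With diluted bacteria and library sizes scaled by the trimmed mean of M values (TMM), 9 of the 10 genes fell against AL and none rose, where 31.6% of all genes tested fell and 28.5% rose. *rsp-7*, the relative of the mammalian SR protein SRp54, was not among those that fell. With no bacteria, 4 of the 10 genes (*sfa-1*, *rsp-4*, *rsp-5* and *rsp-7*) fell against AL and none rose by TMM scaling, where 31% of all genes tested fell and 29.6% rose. By upper-quartile scaling none of the 10 fell and 5 rose, where 20.99% of all genes tested fell and 40.8% rose. Compared directly, DR0 lay above DR1 for 8 genes and below it for *rsp-7*, where 21.2% of all genes tested were higher and 17.8% lower. A change of more than 1 on the log2 scale was passed by 0 of the 10 genes in each comparison, and by 19.2% of all genes tested in DR1 against AL, 19.5% in DR0 against AL and 2.46% in DR0 against DR1. A gene is said here to rise or fall at a Benjamini–Hochberg adjusted p under 0.05 in edgeR's quasi-likelihood test over all genes tested.

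Expression is given as CPM, the count per 1000000 counts of a library whose size is scaled by TMM. The 10 genes were well covered, with 635 to 10337 counts per gene and library out of totals between 9203611 and 12012750. The order of levels between genes is given as CPM per kilobase of merged exons. In AL, *rsp-3*, the worm form of SRSF1 (ASF/SF2), was highest at 587 ± 13.4 CPM per kb (SD, n = 3), followed by *rsp-6*, the SRp20-type SR protein, at 557 ± 13.5. The SC35-type *rsp-4* had 272 ± 9.66 CPM per kb, *rsp-2* 226 ± 9.78, *rsp-1* 159 ± 1.84 and *rsp-5* 129 ± 5.73. The Tra2-related *rsp-8* (88.4 ± 2.73 CPM per kb) and *rsp-7* (73.7 ± 1.43 CPM per kb) were the lowest of the SR genes. Below them came *uaf-1* and *sfa-1*, at 51.1 ± 3.30 and 50.9 ± 1.495 CPM per kb, whose libraries overlapped, whereas the libraries of all other neighbours in this order did not. In DR1 the order changed at 3 places. *rsp-6* (356 ± 6.21 CPM per kb) lay above *rsp-3* (327 ± 11.9), *rsp-7* had moved above *rsp-5* and *rsp-8*, and *sfa-1* (39.2 ± 0.959) lay above *uaf-1* (35.2 ± 1.47). Of these neighbours only *rsp-7* (77.1 ± 3.50 CPM per kb) and *rsp-5* (74.0 ± 4.97) overlapped in DR1. In DR0 the order was that of AL, and *uaf-1* at 51.3 ± 4.63 CPM per kb and *sfa-1* at 42.4 ± 2.39 no longer overlapped.

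**Figure D1:**
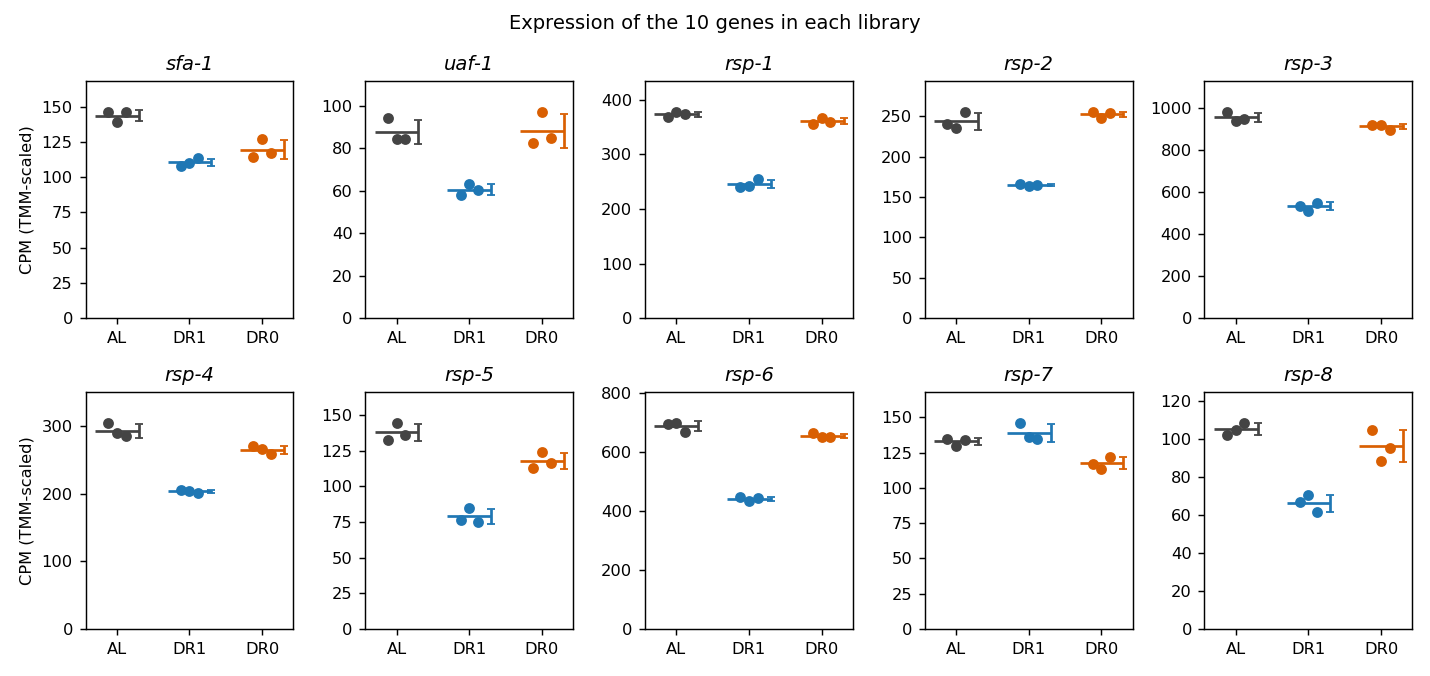
CPM (TMM-scaled, linear axis from 0) of each of the 10 genes in the AL, DR1 and DR0 libraries, with 1 point per library, a line at the mean and a bar of ± 1 SD (n = 3). In 9 of the 10 panels the DR1 points lie below all AL points, as in 33.2% of all genes tested, and in the *rsp-7* panel they lie at 135 to 146 CPM and those of AL at 130 to 135.

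Of the 10 genes, *rsp-3* and *rsp-5* had the largest falls with diluted bacteria by TMM scaling. After quantile normalization *rsp-8*, at −0.48, fell more than *rsp-3*. *rsp-3* (WBGene00004700, chromosome III from 12686182 to 12687922 of WBcel235) had 980, 938 and 946 CPM in the 3 AL libraries. The DR1 libraries held 535, 511 and 549 CPM and the DR0 libraries 919, 917 and 896. All DR1 libraries lay far below the others, and the DR0 libraries lay just under those of AL. Its expression fell by 44.3% in DR1, with a log2 fold change of −0.84 (s.e. 0.036, adjusted p = 7.78e-16). The size of this fall depended on scaling, at −0.50 by total counts and −0.25 after quantile normalization, where it was still called. In DR0 the log2 fold change was −0.068 (adjusted p = 0.102, 95% interval from −0.14 to 0.0054). It was higher in DR0 than in DR1 by 0.78 on the log2 scale (s.e. 0.036). *rsp-6* (WBGene00004703, chromosome IV from 7789847 to 7791229) had 696, 700.0 and 670 CPM in the AL libraries, 448, 433 and 443 in those of DR1 and 664, 652 and 652 in those of DR0. Here too the DR1 libraries were the low ones. The log2 fold change was −0.64 in DR1 (s.e. 0.036, adjusted p = 1.65e-13, or −0.30 by total counts and −0.10 after quantile normalization) and −0.071 in DR0 (adjusted p = 0.0923), and it was 0.57 between DR0 and DR1.

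*rsp-1* and *rsp-2*, relatives of the mammalian SRp75 and SRp40, are neighbours on chromosome II that point away from each other, with 406 bp between their annotated starts. *rsp-1* (WBGene00004698, from 11453362 to 11455864) had 369, 378 and 373 CPM in the AL libraries, 241, 241 and 254 in those of DR1 and 356, 366 and 360.0 in those of DR0. *rsp-2* (WBGene00004699, from 11451441 to 11452955) had 241, 235.1 and 255 CPM with ad libitum food, 166, 163 and 165 with diluted bacteria and 255, 248 and 254 with none. Both genes thus had their low values in DR1. Their log2 fold changes were −0.60 and −0.56 in DR1 (s.e. 0.040 and 0.045, adjusted p = 5.29e-12 and 1.14e-10) and −0.050 and 0.050 in DR0 (adjusted p = 0.295 and 0.340). In DR0 against DR1 they rose by 0.55 and 0.61 on the log2 scale.

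The SC35-type genes *rsp-4* and *rsp-5* and the Tra2-related *rsp-8* fell in DR1 too, and the first pair was also lower in DR0 than in AL. *rsp-5* (WBGene00004702, chromosome II from 6490165 to 6491340) had 133, 145 and 136 CPM in the AL libraries, a mean of 78.8 ± 5.29 with a highest value of 84.9 in those of DR1, and 113, 124 and 116 in those of DR0, and the 3 conditions did not overlap. It fell by 42.8% with diluted bacteria (log2 fold change −0.81, s.e. 0.058, adjusted p = 2.33e-11), and without bacteria it fell by 14.6% (log2 fold change −0.23, s.e. 0.058, adjusted p = 0.00162). For *rsp-4* (WBGene00004701, chromosome II from 5387411 to 5388836) the AL libraries averaged 293 ± 10.4 CPM, the DR1 libraries 203 ± 1.88 and the DR0 libraries 265 ± 6.18. The log2 fold change was −0.53 with diluted bacteria (s.e. 0.043, adjusted p = 1.82e-10) and −0.15 with none (s.e. 0.043, adjusted p = 0.00499). *rsp-8* (WBGene00004705, chromosome III from 11826418 to 11830974) averaged 105 ± 3.25 CPM in the AL libraries, 66.2 ± 4.45 in those of DR1 and 96.2 ± 8.31 in those of DR0. Its log2 fold change was −0.67 in DR1 (s.e. 0.066, adjusted p = 5.55e-09) and −0.13 in DR0 (adjusted p = 0.0922), where its libraries overlapped with AL. Without DR0 replicate 1 it was −0.20 (adjusted p = 0.0195). In DR0 against DR1, the 3 genes rose by 0.38, 0.58 and 0.54 on the log2 scale.

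*rsp-7* (WBGene00004704, chromosome II from 10659206 to 10662317) was the one gene not called in DR1. It had 135, 130 and 134 CPM in the AL libraries, 146, 136 and 135 in those of DR1, and 117, 113 and 122 in those of DR0, so that DR0 held its low libraries. The log2 fold change was 0.063 in DR1 (s.e. 0.050, adjusted p = 0.282, 95% interval from −0.040 to 0.17). In DR0 it was lower than in AL, with a log2 fold change of −0.18 (s.e. 0.051, adjusted p = 0.00447), and lower than in DR1, with −0.24 (s.e. 0.051, adjusted p = 0.000421). The makeup of the SR family differed in DR1. Of the summed CPM per kb of the 8 *rsp* genes, *rsp-7* took 3.52% ± 0.0642 with ad libitum food, 5.77% ± 0.229 with diluted bacteria and 3.29% ± 0.134 with none (SD, n = 3). *rsp-3* took 28.1% ± 0.422, 24.5% ± 0.697 and 28.3% ± 0.234. The shares of *rsp-6*, at 26.6% ± 0.530, 26.7% ± 0.192 and 26.8% ± 0.115, differed by less than the spread between libraries. The ratio of *rsp-7* counts to the summed counts of the other *rsp* genes, which does not depend on library scaling and was chosen after the values were seen, was 0.0477, 0.0466 and 0.0483 in the AL libraries, 0.0841, 0.0797 and 0.0771 in the DR1 libraries, and 0.0437, 0.0426 and 0.0463 in the DR0 libraries. Every DR1 library lay above all libraries of AL and DR0.

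By TMM scaling, the branch-point genes *sfa-1* and *uaf-1* both fell in DR1, and only *sfa-1* of the pair fell in DR0. *sfa-1* (WBGene00013808, chromosome IV from 17103825 to 17110982) had 146, 139 and 146 CPM in the AL libraries. It had 108, 110.1 and 113 CPM in the DR1 libraries and 114, 127 and 117 in the DR0 libraries. Every restricted library lay below every AL library. *sfa-1* fell by 23.1% with diluted bacteria (log2 fold change −0.38, s.e. 0.052, adjusted p = 1.02e-06) and fell by 16.8% without bacteria (log2 fold change −0.27, s.e. 0.052, adjusted p = 0.000125). The first call was lost with total-count scaling, at −0.032 (adjusted p = 0.604), and the other with upper-quartile scaling, at −0.059 (adjusted p = 0.338). Its difference between DR0 and DR1 was 0.11 (s.e. 0.052, adjusted p = 0.0950, unadjusted 95% interval from 0.0043 to 0.22). By TMM, the smallest fall among the 9 genes in DR1 was that of *sfa-1*. After quantile normalization it was that of *rsp-6*, at −0.10 against −0.17 for *sfa-1*. *uaf-1* (WBGene00006697, chromosome III from 1062794 to 1076555) had 94.1, 84.4 and 84.2 CPM in the AL libraries. The DR1 libraries held 58.0, 63.0 and 60.4 CPM and the DR0 libraries 82.2, 97.1 and 84.8. It was low in DR1 alone, where it fell by 30.95% (log2 fold change −0.53, s.e. 0.069, adjusted p = 4.69e-07). In DR0 its log2 fold change against AL was 0.0077 (adjusted p = 0.930, 95% interval from −0.13 to 0.15), and DR0 was higher than DR1 by 0.54 on the log2 scale (s.e. 0.069, adjusted p = 8.21e-07).

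The ratio of *sfa-1* to *uaf-1* counts within a library does not depend on how libraries are scaled. It was 1.55, 1.64 and 1.74 in the AL libraries, 1.86, 1.75 and 1.88 in those of DR1, and 1.39, 1.31 and 1.38 in those of DR0. The ratio was highest in DR1 and lowest in DR0, and no conditions overlapped. On the log2 scale the difference was 0.16 for DR1 against AL, −0.27 for DR0 against AL and −0.43 for DR0 against DR1. Each had p = 0.1 by a two-sided exact permutation test (0.1 after Benjamini–Hochberg adjustment over the 3 comparisons), the smallest p that 3 libraries against 3 can give.

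**Figure D2:**
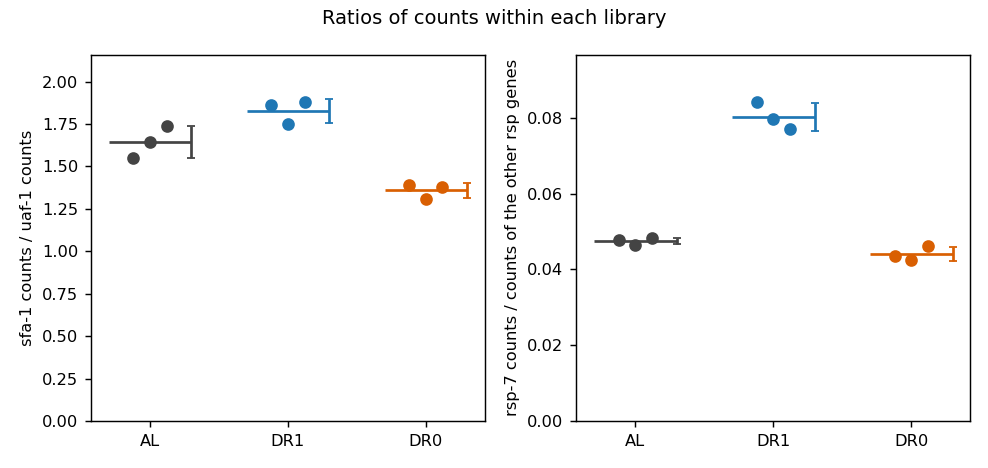
Ratios of counts within each library (linear axes from 0), as *sfa-1* over *uaf-1* on the left and *rsp-7* over the sum of the other *rsp* genes on the right, with 1 point per library, a line at the mean and a bar of ± 1 SD (n = 3). On the left the DR0 libraries lie at 1.31 to 1.39, below all others, and on the right the DR1 libraries lie at 0.0771 to 0.0841, above all others.

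The median log2 fold change in DR1 against AL was −0.58 for the 10 genes and 0.033 for all genes tested. In DR0 against AL these medians were −0.10 and 0.034, and the 4 of 10 genes that fell are a share near that of all genes tested. Between DR0 and DR1 the medians were 0.55 and 0.0052. DR1 and DR0 were compared with the same AL libraries, and DR0 against DR1 uses the same DR1 libraries as DR1 against AL, so the comparisons are not independent.

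**Figure D3:**
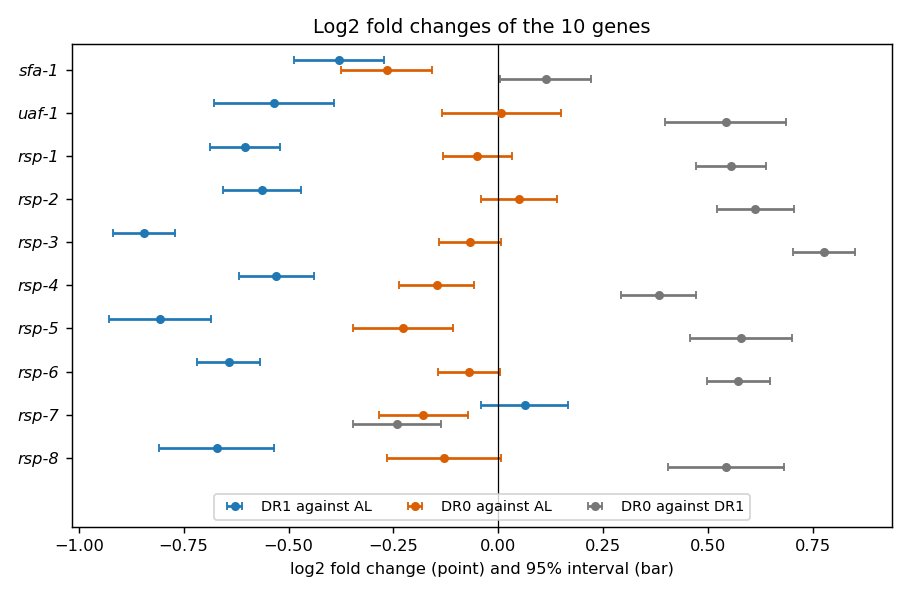
Log2 fold changes (points) with 95% intervals (bars) of the 10 genes for DR1 against AL, DR0 against AL and DR0 against DR1 by edgeR's quasi-likelihood test. The DR1 points of 9 genes lie between −0.84 and −0.38 and that of *rsp-7* at 0.063, whereas the DR0 points against AL lie between −0.27 and 0.050.

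Library scaling moved both the sizes and the calls. The falls of the 9 genes in DR1, from −0.84 to −0.38 by TMM, ranged from −0.65 to −0.18 with upper-quartile scaling, from −0.50 to −0.032 with total-count scaling and from −0.61 to −0.10 with quantile normalization. By total counts and after quantile normalization the values were −0.19 and −0.32 for *uaf-1*, −0.26 and −0.27 for *rsp-1*, −0.22 and −0.31 for *rsp-2*, −0.18 and −0.25 for *rsp-4*, −0.46 and −0.61 for *rsp-5*, and −0.32 and −0.48 for *rsp-8*. Each of these stayed past the threshold. With total-count scaling, which moved the median of all genes from 0.033 to 0.38 in DR1 and gave falls for 17.4% and rises for 49.2% of them, 8 of the 10 genes fell, *rsp-7* rose by 0.41 on the log2 scale and *sfa-1* was not called. *rsp-7* also rose there with upper-quartile scaling (0.26), quantile normalization (0.28) and a mean CPM of at least 5 (0.17). With upper-quartile scaling, which moved the median of all genes to 0.24 in DR0, none of the 10 fell in DR0 against AL and 5 rose (*uaf-1*, *rsp-1*, *rsp-2*, *rsp-3* and *rsp-6*). Of the 4 calls in DR0, that of *sfa-1* was lost with upper-quartile scaling alone. Those of *rsp-4*, *rsp-5* and *rsp-7* were lost there too, and also with total-count scaling (*rsp-4*), quantile normalization (*rsp-5* and *rsp-7*) or a mean CPM of at least 5 (*rsp-4* and *rsp-7*). Between DR0 and DR1, *rsp-4* was not called with total-count scaling, at 0.090 (adjusted p = 0.0907), and *sfa-1* was lower in DR0, at −0.18, while 39.1% of all genes tested were lower and 9.02% higher. The 8 genes higher in DR0 by TMM, at 0.38 to 0.78, lay at 0.090 to 0.48 by total counts and at 0.12 to 0.49 after quantile normalization. The median of the 10 genes minus that of all genes, which a scaling factor per library cannot move, was −0.62 in DR1 and −0.13 in DR0. It was −0.31 and −0.037 with quantile normalization, and −0.49 and −0.026 with a mean CPM of at least 5.

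Other splicing genes changed in both directions. The gene lists from here on, tissue markers included, were counted by TMM scaling alone. By it, 31.6% of all genes tested fell and 28.5% rose in DR1, and 31% fell and 29.6% rose in DR0. In DR0 against DR1, 21.2% were higher and 17.8% lower. Upper-quartile scaling moved the median of all genes to 0.24 in DR0. Total-count scaling moved it to −0.29 in DR0 against DR1. Such shifts would move the list medians as well. Of 90 tested on 5 lists, 19 rose and 38 fell in DR1 (median −0.11), and 14 rose and 37 fell in DR0 (median −0.11). Of 12 genes for U2AF and the U2 particle, which binds the branch point after SFA-1, 1 rose and 4 fell in DR1, and their median log2 fold change was −0.054. *uaf-2*, the small subunit of U2AF and the partner of UAF-1, had a log2 fold change of 0.092 with diluted bacteria (adjusted p = 0.145) and of 0.14 with none (s.e. 0.054, adjusted p = 0.0352). It was named as the partner of *uaf-1*, and in DR1 falls outside the rule for naming genes. The lowest in DR1 were *phf-5* (−0.31) and *repo-1* (−0.29), and *teg-4*, which codes for a subunit of the SF3b complex, was 0.25 higher. In DR0, 2 rose and 4 fell (median −0.050), led by the SF3b gene *sftb-1* with −0.39 (s.e. 0.057, adjusted p = 3.48e-06).

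Among 8 genes for kinases of SR proteins and for mRNA export, there were 2 rises and 4 falls in DR1 against 2 rises and 3 falls in DR0. The family of export adaptors split, since *aly-1* had 222 CPM in AL and rose to 403 with diluted bacteria and 409.9 without (log2 fold changes 0.86 and 0.88, s.e. 0.040 for both), while *aly-2* fell from 158 CPM to 97.3 and 104.2 (−0.70 and −0.60, s.e. 0.065 and 0.065). The SR protein kinase gene *spk-1* fell in DR0, with a log2 fold change of −0.31 (s.e. 0.056, adjusted p = 4.56e-05). Its mean with diluted bacteria, 147 CPM, lay between 133 in DR0 and 164 in AL, a log2 difference of −0.16 from AL. The Sm and Lsm genes code for the protein rings of the spliceosomal particles and of mRNA decay. Of 15 of them, 1 rose and 8 fell in DR1 (median −0.14), 8 rose and 1 fell in DR0 (median 0.25), and 13 rose and none fell in DR0 against DR1 (median 0.47). *snr-1* averaged 515 CPM in AL, 551 in the DR1 libraries and 788 in those of DR0, a rise of 0.61 on the log2 scale without bacteria (s.e. 0.038, adjusted p = 1.501e-12). *lsm-1*, a subunit of the cytoplasmic ring of mRNA decay, fell by 0.75 with diluted bacteria and fell by 0.42 without bacteria, on the log2 scale.

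Of 31 genes for the U1 particle, the tri-snRNP and the catalytic spliceosome, 12 rose and 10 fell in DR1 (median −0.011), 17 fell and none rose in DR0 (median −0.18), and 21 were lower and 1 higher in DR0 than in DR1 (median −0.20). *prp-8*, the core of the spliceosome, was lower in DR0 than in DR1, at 186 against 290 CPM (log2 fold change −0.64, s.e. 0.047, adjusted p = 8.35e-11). The DEAH-box helicase gene *mog-1* rose by 0.73 in DR1 and was 0.61 lower in DR0 than in DR1 on the log2 scale, while *emb-4* fell by 0.82 against AL with diluted bacteria and fell by 0.94 with none. *rsr-1*, an SR-related matrix protein gene, fell by 0.68 in DR1 and was the 1 gene of this list that was higher in DR0 than in DR1, by 0.65. Of 24 tested genes listed as regulators of alternative splicing, 3 rose and 12 fell in DR1 (median −0.29), and 2 rose and 12 fell in DR0 (median −0.20). The U2AF-like *rbm-39* fell by 0.62 in DR1 and was 0.48 higher in DR0 than there, on the log2 scale (s.e. 0.055 for both), and the hnRNP K homologue *hrpk-1* had −0.69 and 0.47 (s.e. 0.045 for both). The muscle regulator *sup-12* rose by 0.34 and 0.52 in DR1 and DR0. *gld-1*, with log2 fold changes of −1.47 and −1.03, was the lowest of this list in DR1. It is counted among the germline markers as well, and a role of it in splicing was not examined. Of 7 genes of nonsense-mediated decay, which removes mRNAs with early stop codons, DR1 had 3 rises and 2 falls, and DR0 had 1 rise and 3 falls. In DR0 against DR1, 1 of these rose and 6 fell (median −0.45).

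**Figure D4:**
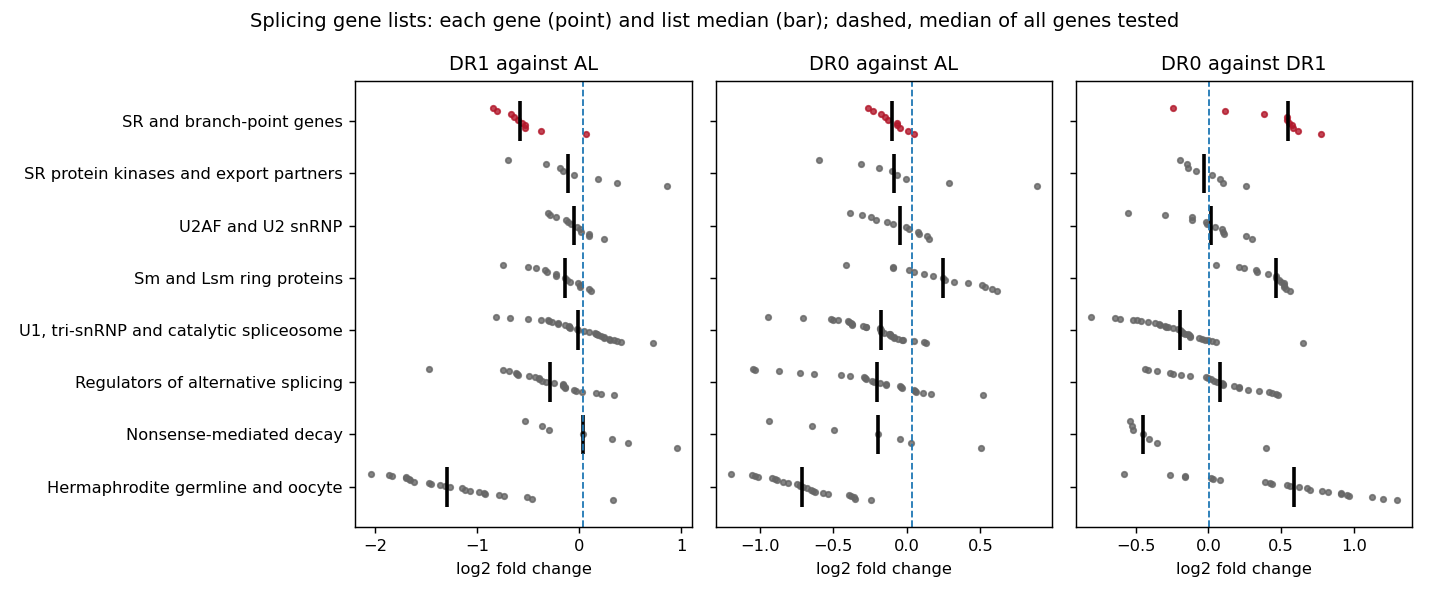
Log2 fold changes of the genes of 8 lists in DR1 against AL, DR0 against AL and DR0 against DR1, with 1 point per gene, a black bar at the list median and a dashed line at the median of all genes tested. The medians of the SR and branch-point genes lie at −0.58, −0.10 and 0.55, and those of the germline and oocyte markers at −1.29, −0.71 and 0.59.

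The nearest tested genes on either side were picked by position, as far as 579 bp away. *sfa-1* lies 98 bp from *cyn-13*, a cyclophilin gene on the same strand, which had a log2 fold change of 0.034 with diluted bacteria (adjusted p = 0.543) and of 0.34 in DR0 (s.e. 0.047, adjusted p = 1.07e-06), where *sfa-1* fell. On its other side, at 109 bp and on the same strand, Y116A8C.30 fell in DR1 and in DR0, by log2 fold changes of −0.86 and −0.39 (adjusted p = 8.78e-06 and 0.0168). Thus 1 neighbour of *sfa-1* fell with it and the other did not. *rsp-8* and *ntl-3*, a gene of the CCR4-NOT complex, end 37 bp apart on opposite strands, and *ntl-3* fell by 0.45 in DR1 (adjusted p = 1.01e-06) and stood at 0.00063 in DR0. *rsp-3* starts 395 bp from the oppositely directed *spin-4*, with log2 fold changes of −0.65 and −0.55 against AL. *rsp-6* lies between *imp-3* at 233 bp, with −0.20 and −0.55, and C33H5.13 at 474 bp, with −0.35 and −0.22 (adjusted p = 0.0771 for the last). *rsp-5* starts 403 bp from the oppositely directed Sm gene *snr-3*, with −0.12 and 0.41. *rsp-7* starts 579 bp from *snu-13*, a component of the U4 particle and of snoRNPs, which fell by 0.45 in DR1 (adjusted p = 3.40e-10) and had −0.058 in DR0. Both genes of the pair *rsp-1* and *rsp-2* fell in DR1, whereas of *snu-13* and *rsp-7* the first fell and the other was not called. By the paper's methods, reads were counted without strand. In the current annotation *rsp-1*, *rsp-2*, *rsp-3*, *rsp-4* and *rsp-7* share 5 to 73 exon bases with another gene. These partners had 4.12 to 74.99 mean CPM, the highest being *ndx-6* beside *rsp-4*.

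Tissue markers also differed between the conditions, and not all in the same way. Of 24 markers of the hermaphrodite germ line and oocytes, 23 fell and 1 rose in DR1 (median −1.29) and all 24 fell in DR0 (median −0.71). Their summed level was 5866 to 6052 CPM in AL, 2284 to 2392 in DR1 and 3684 to 3807 in DR0. The summed level of the 8 *rsp* genes was 2908 to 2960 CPM in AL, 1842 to 1884 in DR1 and 2752 to 2798 in DR0. In DR0 both sums lay between those of DR1 and AL. So did the sums of the body wall muscle and intestinal markers, whereas that of the neuronal markers was highest in DR0. Of 10 body wall muscle markers, DR1 had 9 falls and 1 rise and DR0 had 6 falls and 3 rises, with summed levels of 3141 to 3186 CPM in AL, 1376 to 1462 in DR1 and 2632 to 2663 in DR0. Of 8 intestinal markers, 6 fell and 1 rose in each condition, and their sum was 1541 to 1561 CPM with ad libitum food, 497 to 520.2 with diluted bacteria and 613 to 649.5 with none. The 10 neuronal markers summed to 469.7 to 494, 481 to 499.9 and 609.6 to 619.9 CPM, and had medians of 0.15 in DR1 and 0.071 in DR0. Of 12 sperm markers, 5 had enough counts to be tested and summed to at most 16.5 CPM, and 3 fell in DR1 and 4 in DR0. None of the markers tested was at 0 in all libraries of a condition. The part of tissue content in the values of the splicing genes was not tested.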

How the data were processed

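The 9 libraries (3 per condition) were RNA-seq of whole worms. What the authors deposited are raw counts, whole reads per gene identifier. Per the paper's methods, reads of low quality were removed, the rest were mapped to WBcel235 with STAR and counted over exons with htseq-count without strand, with the annotation of Ensembl release 89. The processing notes with the samples name STAR 2.73a and edgeR 3.24.3, whereas the methods name another STAR version and limma-voom. Which of these applied to the 9 libraries is not settled. No library was left out, and every sample column was used.

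All tests used edgeR 4.0.16 under R 4.3.3. After filterByExpr, libraries were scaled by TMM, and condition means were estimated over all 9 libraries (glmQLFit) and contrasted with glmQLFTest. Adjusted p values are Benjamini–Hochberg over 14332 genes. The s.e. was obtained from the F statistic, as the size of the log2 fold change over the root of F. The common biological coefficient of variation was 6.59%. Exon lengths and positions are from Ensembl release 115 of WBcel235. The 10 genes and the lists were chosen with earlier results of these data known. All 10 genes are named, and from each splicing list up to 3 rises and 3 falls per comparison at 10 CPM or more were eligible. The lists' *cdc-5l* and *star-2* were not matched, and *sym-2* was not tested. Alternatives were limma-voom (limma 3.58.1), DESeq2 1.42.0, RLE, upper-quartile, total-count and quantile scaling, no filter, mean CPM minimums of 1 and 5, each library left out, a block for the replicate number, and a fit restricted to the conditions compared. Ratios within libraries of *rsp-7* and medians relative to all genes were added after seeing the data. Figures were drawn with matplotlib 3.10.9.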

Additional observations from a re-analysis of the deposited data

How the results depend on the processing

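The number of the 10 genes called in DR1 against AL was 9 or 10 in all alternatives, and 9 in DR0 against DR1. None rose in DR1 by TMM, but 1 (*rsp-7*) did with upper-quartile, total-count and quantile scaling and with a mean CPM of at least 5. In DR0 against AL, where no gene rose and 4 fell, 5 rose and 0 fell with upper-quartile scaling, 2 rose and 2 fell with quantile normalization, 1 rose and 2 fell with a mean CPM of at least 5, and 1 rose with total-count scaling. With limma-voom 6 fell. In DR0 against DR1, 2 in place of 1 were lower with total-count scaling. Leaving out 1 library gave 9 falls in DR1, 4 to 5 in DR0, and 8 rises and 1 fall in DR0 against DR1. The ratio of *sfa-1* to *uaf-1* kept its direction without any 1 library, with log2 differences of 0.11 to 0.20, −0.31 to −0.23 and −0.46 to −0.40.

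Some log2 fold changes in DR0 against AL changed sign, those of *rsp-4* and *rsp-7* among them, which fell by TMM scaling. With upper-quartile scaling they were 0.16 for *rsp-1*, 0.14 for *rsp-3*, 0.060 for *rsp-4*, 0.14 for *rsp-6*, 0.028 for *rsp-7* and 0.078 for *rsp-8*. With quantile normalization they were 0.10 for *rsp-3*, 0.059 for *rsp-6* and 0.0062 for *rsp-8*, and with a mean CPM of at least 5 they were 0.022 for *rsp-1*, 0.0036 for *rsp-3* and 0.0012 for *rsp-6*. *rsp-1* was at 0.0056 with total-count scaling. *uaf-1* was at −0.0067 with no filter, between −0.073 and 0.056 without any 1 library, and at −0.023, −0.023 and −0.073 without AL replicate 2, AL replicate 3 or DR0 replicate 2. In DR0 against DR1, *sfa-1* was at −0.18 with total-count scaling (adjusted p = 0.00691). The scalings move every gene by construction. So does a change of filter, because the TMM factors are computed after it. For the libraries left out, the cause was not tested.

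No pairing by replicate number was seen. Deviations of same-numbered libraries correlated at −0.018 to 0.063, and those of libraries with different numbers at −0.059 to 0.049. These correlations cannot show whether libraries were handled in matched sets. With the replicate number as a block, the counts stayed at 9, 4 and 9, and the exact sign-flip p of the *sfa-1* to *uaf-1* ratio was 0.25 in each comparison, the smallest that 3 pairs allow.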
